A study of Mus musculus with 4 samples.

Results

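miR-128 is the brain miRNA described here, in 3 forms: mmu-miR-128-3p, mmu-miR-128-1-5p and mmu-miR-128-2-5p. Members were taken by name from a table of the small RNAs held by the Argonaute (Ago) proteins, and they are 3 of the 1029 miRNA names in it and 549 of its 85704 sequences. Of these sequences, 504 carried the name miR-128-3p, 15 the name miR-128-1-5p and 30 the name miR-128-2-5p. The groups were C57BL/6J (BL6) male mice bought from a supplier (Jackson Laboratory) at 2 months and at 18 months of age, with 2 libraries per age and the labels name no treatment or allele. Each library held RNA from cortex and hippocampus combined, and the labels give 250 mg of tissue for it, while the study's methods give a smaller amount. Ago was pulled out of the lysate with a peptide of GW182, a protein that binds Ago, so a read stands for an RNA in the RNA-induced silencing complex (RISC). Whether a library came from 1 mouse or from several is not given in the labels, so p-values measure only the spread between these libraries.

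An miRNA is cut from a hairpin, and usually one arm of the hairpin stays in the RISC while the other is lost. The seed, the bases just after the 5′ end, selects the targets, so a start that moves by a single base gives a different seed. miR-128 is abundant in neurons and is known for lowering the excitability of neurons. In mouse it is made from a pair of hairpins, mir-128-1 in an intron of R3hdm1 and mir-128-2 in an intron of Arpp21, a gene that is highly expressed in forebrain neurons.

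The hairpins are shown because the 3p arm is the same in both while the 5p arms and the bases after the 3p arm are not. Sequences are from RefSeq on GRCm38.p6, written 5′ to 3′, and the capitals mark the mature arms, the 5p arm first. The mir-128-1 hairpin lies on the plus strand at chr1:128202361-128202430 and the mir-128-2 hairpin on the minus strand at chr9:112118636-112118711.
mir-128-1 hairpin: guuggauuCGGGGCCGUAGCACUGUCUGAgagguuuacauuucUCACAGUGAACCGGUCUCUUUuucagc
mir-128-2 hairpin: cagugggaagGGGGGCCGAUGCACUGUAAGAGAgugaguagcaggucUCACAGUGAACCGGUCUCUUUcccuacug

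The mature forms follow with bases 2 to 8, the seed, in capitals. The 3p arm sits at chr1:128202404-128202424 and at chr9:112118644-112118664, miR-128-1-5p at chr1:128202369-128202389, and miR-128-2-5p at chr9:112118679-112118701.
miR-128-3p: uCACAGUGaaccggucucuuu
miR-128-1-5p: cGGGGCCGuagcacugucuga
miR-128-2-5p: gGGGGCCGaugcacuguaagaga
Both 5p arms share their seed, so they form 1 seed group apart from the 3p arm.

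miR-128-3p was among the most abundant miRNAs of the RISC at both ages. Levels are in CPM, read counts scaled to 1000000 reads per library, and the libraries held 10484940 and 11388999 reads at 2 months, against 10575081 and 9067007 at 18 months. miR-128-3p had 37433 CPM in 2-month replicate 1, 62462 CPM in 2-month replicate 2, 69829 CPM in 18-month replicate 1 and 55905 CPM in 18-month replicate 2. The first 2-month library was low and the other 3 were all higher, so the ages overlapped. With 392479 to 738451 reads of it per library, counting error was far below this spread: the 95% Wilson interval of the low library was 37318 to 37548 CPM, and such intervals cover counting error only. Means were 49947 ± 17699 CPM at 2 months and 62867 ± 9846 CPM at 18 months (SD, n = 2). The log2 change from 2 to 18 months was 0.37 with a standard error of 0.30 and a 95% interval of -0.37 to 1.10, which did not pass the test (limma, adjusted p = 0.517). Without the low library the change was 0.0004, and without the other 2-month library it was 0.74. A bulk library cannot tell fewer cells of a type from less RNA per cell.

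The 5p arms, the strands that are mostly not kept, were rare. miR-128-1-5p had 43.3 and 33.1 CPM at 2 months, against 30.3 and 25.5 CPM at 18 months, 231 to 454 reads per library. miR-128-2-5p had 60.5 and 66.8 CPM at 2 months, against 55.3 and 42.5 CPM at 18 months, 385 to 761 reads per library. For both arms each 18-month library lay below each 2-month library. The log2 change was -0.43 with a standard error of 0.26 for miR-128-1-5p (limma, adjusted p = 0.437) and -0.38 with a standard error of 0.24 for miR-128-2-5p (limma, adjusted p = 0.442). Their 95% intervals, -1.07 to 0.21 and -0.97 to 0.21, contained 0.

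None of the 3 forms was called between the ages, where a call is an unadjusted p under 0.05 in limma over all 456 miRNAs with a mean of at least 10 CPM, while 16.2% of those miRNAs were called. edgeR and DESeq2 on the recovered reads called none of the 3 at that threshold either. The lack of overlap of the 5p arms was also common: 41.4% of the 456 miRNAs had both 18-month libraries below both 2-month libraries. On the CPM scale, the tested miRNAs as a whole had a median log2 change of -0.22. After rescaling of each library by its median of ratios over the tested miRNAs that median was -0.01, and miR-128-1-5p, at 39.5 and 31.0 against 33.0 and 26.8 rescaled CPM, overlapped between the ages. miR-128-2-5p overlapped as well, with 55.1 and 62.7 against 60.3 and 44.7 rescaled CPM. On that scale miR-128-3p had 34116 and 58587 rescaled CPM at 2 months, against 76152 and 58797 at 18 months. The ages did not overlap, but the nearest libraries, at 58587 and 58797, were almost equal. How many of all miRNAs had both 18-month libraries above both 2-month libraries on that scale was not counted. The log2 change of miR-128-3p, 0.58 there, still missed the threshold (limma, adjusted p = 0.461).

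**Figure D1:**
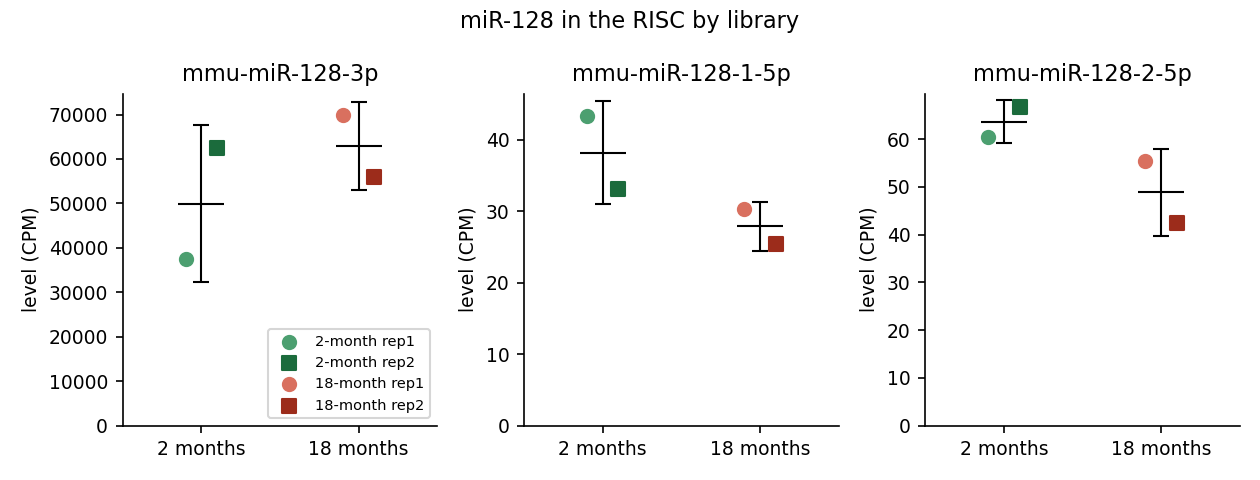
Level of each miR-128 form in CPM (linear axes from 0, 1 panel per form) in the 4 libraries; points are libraries, horizontal bars are means and error bars are SDs of 2 libraries. The 3p arm runs from 37433 to 69829 CPM with the ages overlapping, and both 5p arms lie lower in the 18-month libraries on this scale. After rescaling by factors over the tested miRNAs the 5p arms overlap between the ages.

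In the order of mean CPM, miR-128-3p was the third of all miRNAs, and it held 3.74%, 6.25%, 6.98% and 5.59% of the reads of the libraries in the order above. By library its rank was 4, 2, 3 and 3. miR-124-3p, a miRNA of neurons, was first with a mean of 94694 CPM. miR-26a-5p was second at 59353 CPM, with library values from 48338 to 72987 CPM that span the mean of miR-128-3p, so these neighbours did not differ beyond their spread. Below it came miR-9-5p at 34977 CPM, from 25548 to 43876 CPM, and miR-29a-3p at 33211 CPM, from 26219 to 44183 CPM. Both reached above the low miR-128-3p library and stayed below the other 3.

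The profile of miR-128-3p over the libraries was compared with those of 108 miRNAs with a mean of at least 1000 CPM, as the root mean square difference of the centred log2 profiles over 4 libraries. The most like was miR-182-5p at 0.19, followed by miR-200c-3p at 0.21, miR-429-3p at 0.22, miR-129-2-3p at 0.23 and miR-101b-3p at 0.23, against a median of 0.44. miR-182-5p had 2692 and 4033 CPM at 2 months, against 6191 and 4902 CPM at 18 months. miR-429-3p had 5149 and 8625 CPM at 2 months, against 12047 and 11065 CPM at 18 months. Each of these 5 was lowest in the library where miR-128-3p was lowest, which follows largely from their choice by likeness over these libraries. All these profiles come from the same 4 libraries, whose depth and preparation they share.

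The balance between the arms was far on the 3p side in each library. For each 5p read there were 361 and 625 reads of miR-128-3p at 2 months, against 816 and 823 at 18 months. The 5p arms thus took 0.276% and 0.160% of miR-128 reads at 2 months, against 0.122% and 0.121% at 18 months. The 18-month libraries lay close together and below both 2-month libraries, which differed from each other by more than the means of the ages did. The difference of -0.0962 percentage points had p = 0.333 in a two-sided exact permutation test, the smallest p that 2 against 2 libraries can give, and it was -0.0378 without 2-month replicate 1 and -0.155 without 2-month replicate 2. A share within miR-128 does not depend on how the libraries were scaled.

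The hairpins can be told apart by their 5p arms and, for some reads, by the bases after the 3p arm. miR-128-2-5p exceeded miR-128-1-5p in each library, by ratios of 1.40 and 2.02 at 2 months, against 1.83 and 1.67 at 18 months. miR-128-1-5p made up 41.7% and 33.1% of the 5p reads at 2 months, against 35.4% and 37.5% at 18 months, which overlap (exact permutation p = 1). On the 3p side, 69.2% to 72.3% of the reads matched both hairpins. Of the reads that matched exactly 1 hairpin, mir-128-1 held 90.4% and 92.9% at 2 months, against 93.5% and 92.2% at 18 months (exact permutation p = 0.667).

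These shares rest on the base that follows the 21-base reference form, which is U in mir-128-1 and C in mir-128-2, as the hairpins above show. Reads ending in that U were 16.2%, 17.0%, 17.5% and 18.7% of miR-128-3p reads in library order. Reads ending in the C were 1.86%, 1.39%, 1.29% and 1.69%. The U form exceeded the C form by 8.72, 12.3, 13.6 and 11.1 times, while the 5p arms gave more reads of mir-128-2. A U added to a product of mir-128-2 without a template would read as mir-128-1, and these cannot be told apart. Reads with A or G at that place, which neither hairpin encodes, were 2.68%, 2.62%, 3.97% and 3.27% for A and 0.277%, 0.291%, 0.224% and 0.214% for G.

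A few sequences made up most of miR-128-3p. They are listed from the most to the fifth most abundant, with the bases that the deposited table takes as seed (2 to 7) in capitals.
Reference form: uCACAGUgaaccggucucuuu
Form with the mir-128-1 base: uCACAGUgaaccggucucuuuu
Form shorter by a base: uCACAGUgaaccggucucuu
Form with an untemplated A: uCACAGUgaaccggucucuuua
Form that starts 1 base later: cACAGUGaaccggucucuuu
The reference form held 57.5% of miR-128-3p, the form with the mir-128-1 base 17.4%, the shorter form 9.29%, the form with the untemplated A 3.21% and the late start 1.65%. The reference form had 21847 and 36849 CPM at 2 months, against 39728 and 31377 CPM at 18 months, and the ages overlapped. The first 4 share the seed CACAGU and the fifth has ACAGUG.

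Most variation lay at the 3′ end. Reads of 21 bases were 60.3% and 60.9% of miR-128-3p at 2 months, against 59.4% and 58.3% at 18 months. Reads of 22 bases were 21.9% and 22.1% at 2 months, against 24.0% and 24.7% at 18 months. Reads of 20 bases were 11.3% and 11.5% at 2 months, against 10.7% and 11.1% at 18 months. In all 3 length classes the ages did not overlap, with 22 bases higher and the other classes lower at 18 months. Of 90 other miRNAs that averaged at least 1000 CPM and had a RefSeq sequence, 15.6% had both 18-month libraries above both 2-month libraries in the share of reads 1 base longer than the RefSeq form. Both lay below in 26.7% for reads of the RefSeq length and in 16.7% for reads 1 base shorter. The mean length moved little, from 21.16 and 21.14 bases to 21.16 and 21.17 bases, a difference of 0.0194 bases (exact permutation p = 0.333) that was 0.0110 without 2-month replicate 2. Of the 90 other miRNAs, 22 had a longer mean at 18 months.

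**Figure D2:**
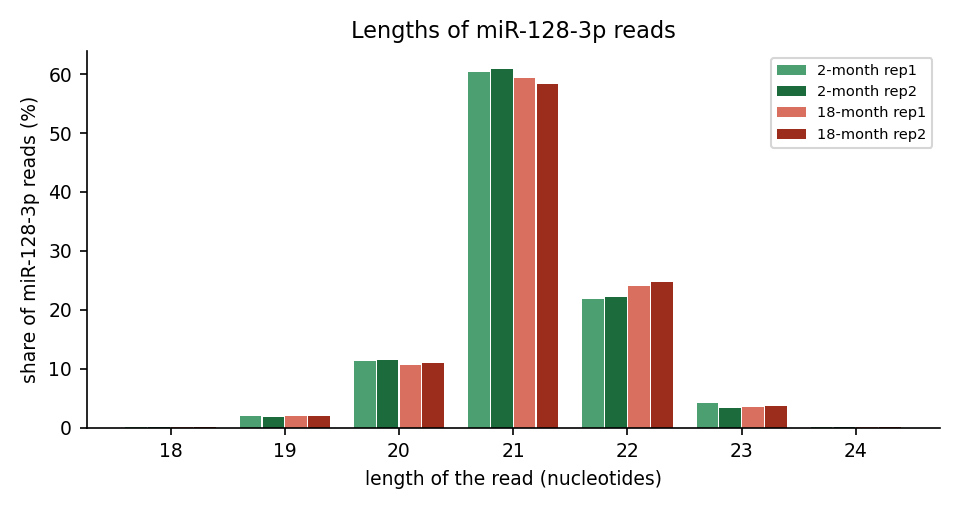
Share of miR-128-3p reads (%) by read length in bases, 1 bar per library and length. Reads of 21 bases form 58.3% to 60.9% of each library, and the bars for 22 bases are higher at 18 months, with no overlap between the ages.

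Bases at the 3′ end that no hairpin encodes are called a tail here, counted up to 3 bases. Tailed reads were 7.82% and 6.90% of miR-128-3p at 2 months, against 9.31% and 7.78% at 18 months, which overlapped (exact permutation p = 0.667). Tails of A alone were 5.62% and 4.94% at 2 months, against 7.39% and 5.88% at 18 months, higher in each 18-month library, by 1.35 percentage points in the mean (exact permutation p = 0.333) and by 0.597 without 18-month replicate 1 or 2.10 without 18-month replicate 2. Tails of G alone, 0.478% and 0.483% against 0.385% and 0.371%, and of U alone, 0.420% and 0.379% against 0.343% and 0.337%, were lower in each 18-month library. A U added where a hairpin also has U, as just after the reference form in mir-128-1, counts as encoded. The U tails here therefore leave out such reads. How many other miRNAs had lower G or U tails was not counted. The A tail in both 18-month libraries above both 2-month libraries was also found in 43.3% of the 90 other miRNAs, and 63 of them had a higher mean at 18 months.

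The share of A tails differed with the templated end of the read. Among reads that end after base 21 of the reference form, 4.40% and 4.25% carried 1 added A at 2 months, against 6.53% and 5.50% at 18 months. Among reads that end a base earlier, the share was 7.58% and 7.05% at 2 months, against 11.7% and 8.27% at 18 months. These were the ends with the larger shares, and at both of them the ages did not overlap. How many other miRNAs did so at single ends was not counted. Among reads of 22 templated bases the share was 3.73% and 2.99% at 2 months, against 4.01% and 3.24% at 18 months, where the ages overlapped. They overlapped as well among reads of 19 templated bases, with 3.33% and 3.35% at 2 months, against 4.16% and 3.04% at 18 months.

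The 5′ start was more fixed than the 3′ end. Reads with the reference start were 97.4% and 97.3% of miR-128-3p at 2 months, against 96.3% and 96.8% at 18 months. Shifted starts were therefore 2.63% and 2.66% at 2 months, against 3.71% and 3.24% at 18 months, a difference of 0.831 percentage points (exact permutation p = 0.333). The 2-month libraries were nearly equal and both 18-month libraries lay above them. Most of these reads started 1 base later, 2.20% and 2.36% against 3.39% and 2.94%. Reads that started 1 base earlier were 0.220% and 0.167% at 2 months, against 0.166% and 0.149% at 18 months.

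Among the 90 other miRNAs, 11.1% had both 18-month libraries above both 2-month libraries in this share, the median difference was 0.0119 percentage points and 47 had a higher mean at 18 months. With a mean shifted share of 3.06% miR-128-3p ranked 37 of these miRNAs, near their median of 2.73%. Its A tail, 5.96% in the mean, ranked 31 against a median of 4.28%.

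**Figure D3:**
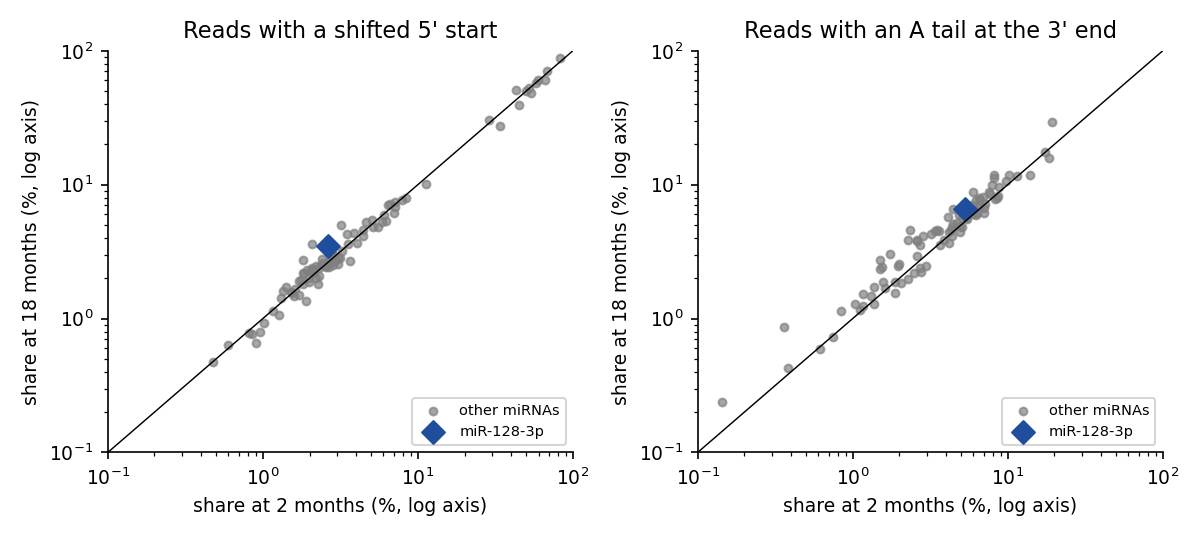
Mean share of reads (%, log axes) at 2 months against 18 months for miR-128-3p (diamond) and 90 other miRNAs (grey points), for reads with a shifted 5′ start (left) and with an A tail (right); the line marks equal shares. miR-128-3p lies above the line in both panels, by 0.831 and 1.35 percentage points. A miRNA with an A tail share of 0 in each library cannot be shown on the log axes of the right panel.

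A moved start changes the seed, and other miRNAs can have the new seed. The reference seed CACAGU was almost private to miR-128-3p, which made up 98.4% of the CPM with that seed. The late seed ACAGUG was likewise 96.7% miR-128-3p, beside miR-139-5p at 12.3 CPM. The early seed UCACAG is that of the miR-27 family, shown here with bases 2 to 8 in capitals to compare it with the early start of miR-128-3p (bases 2 to 7 in capitals).
miR-27a-3p: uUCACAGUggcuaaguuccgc
miR-27b-3p: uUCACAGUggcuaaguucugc
miR-128-3p, early start: cUCACAGugaaccggucucuuu
With that seed miR-27b-3p had 6867 CPM and miR-27a-3p 4895 CPM, while miR-128-3p had 96.3 CPM, 0.796% of the reads with it, and miR-673-5p 92.8 CPM. In turn, miR-27b-3p and miR-27a-3p reads that start later gave 55.1 and 30.4 CPM with the seed CACAGU.

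The deposited table gives each seed a viability, the survival of mouse cell lines given an RNA with that seed, in percent of a control. A low value means that the seed was toxic in that screen. CACAGU scored 49.5, the late seed ACAGUG 70.2, the early seed UCACAG 59.0, and GGGGCC, the seed of both 5p arms, 26.4, against a median of 60.3 over all sequences. The 5p arms were 56.5% (miR-128-2-5p) and 36.8% (miR-128-1-5p) of the CPM with the seed GGGGCC. The mean viability of miR-128-3p reads was 50.03 and 50.04 at 2 months, against 50.26 and 50.16 at 18 months, a difference of 0.175 (exact permutation p = 0.333).

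Because the main seed lies just under 50, miR-128-3p was a large part of the reads with a viability below 50. Those reads were 26.3% and 27.5% of the libraries at 2 months, against 28.5% and 25.6% at 18 months. miR-128 made up 13.9% and 22.1% of them at 2 months, against 23.6% and 21.1% at 18 months. The low share stood in the library where miR-128-3p was low, and the ages overlapped. The mean viability of all reads was 57.7 and 57.9 at 2 months, against 58.1 and 58.4 at 18 months, and without miR-128 it was 58.0, 58.4, 58.7 and 58.9 in the same order.

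At the level of single sequences, 170 of the 549 members had a mean of at least 1 CPM and could be tested. limma called 12 of them at an unadjusted p under 0.05, where 10.1% of all 14287 tested sequences were called, so miR-128 with 7.06% was not above the background. 10 were higher and 2 lower at 18 months, and 5.87% of all tested sequences were called higher. None of the 12 passed after Benjamini-Hochberg adjustment in limma, the lowest adjusted p being 0.393. edgeR and DESeq2 on the recovered reads called 8 and 6 at an unadjusted p under 0.05 and 0 after adjustment. The count rested on single libraries: it was 1 without 2-month replicate 1, 2 without 18-month replicate 1 and 19 without 2-month replicate 2.

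All 10 called higher were of miR-128-3p, and 5 of them started 1 base later. The late form shown above had 481 and 864 CPM at 2 months, against 1421 and 954 CPM at 18 months, a log2 change of 0.85 with a standard error of 0.35 (limma, adjusted p = 0.463). The same start with the mir-128-1 base, cACAGUGaaccggucucuuuu, had 138 and 264 CPM at 2 months, against 430 and 330 CPM at 18 months, a log2 change of 0.98. The form with the untemplated A had 1005 and 1635 CPM at 2 months, against 2776 and 1826 CPM at 18 months, a log2 change of 0.81 with a standard error of 0.33 (limma, adjusted p = 0.460). For these forms the ages did not overlap, and the low 2-month library was the one with less miR-128-3p. Of all 14287 tested sequences, 20.5% had both 18-month libraries above both 2-month libraries and 21.3% had both below. Of the 170 tested here, 51 lay above and 12 below, so these leaned upward while all sequences did not. Most of the 170 are of miR-128-3p and share its low 2-month library.

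By class, 23 of 24 tested sequences that started 1 base later had a positive log2 change, with a median of 0.50. With an A tail it was 25 of 26, with a median of 0.52. Most other sequences of miR-128-3p were positive too. Among tested sequences with the reference start that matched a hairpin exactly, at any length, 7 of 8 were positive, with a median of 0.28. Of all 159 tested sequences of miR-128-3p, 129 were positive, with a median of 0.28. The median of all 14287 tested sequences was -0.009, and how many of them were positive was not counted. Some late starts also carry an A tail, and all these sequences share their libraries and are not independent.

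Both sequences called lower were of the 5p arms and had means of 3.32 and 5.99 CPM. In both the 18-month libraries lay below the 2-month libraries, as in 21.3% of all tested sequences. cGGGGCCguagcacugucugag of miR-128-1-5p had 3.53 and 6.50 CPM at 2 months, against 0.946 and 2.32 CPM at 18 months, a log2 change of -1.20. gGGGGCCgaugcacuguaagag of miR-128-2-5p had 8.11 and 7.73 CPM at 2 months, against 3.50 and 4.63 CPM at 18 months, a log2 change of -0.82. The most abundant 5p forms moved less: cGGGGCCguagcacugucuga had 27.9 and 17.3 CPM at 2 months, against 20.6 and 16.9 CPM at 18 months, with a log2 change of -0.23. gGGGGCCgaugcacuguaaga had 16.3 and 19.1 CPM at 2 months, against 17.2 and 9.60 CPM at 18 months.

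**Figure D4:**
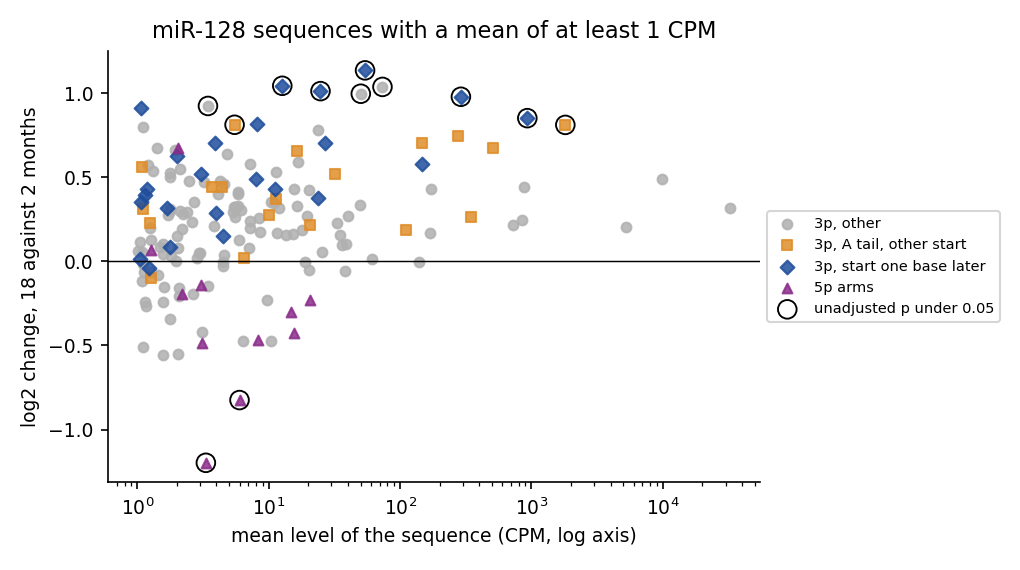
Log2 change from 2 to 18 months of the 170 tested miR-128 sequences against their mean level (CPM, log axis); colour and shape give the class and rings mark an unadjusted p under 0.05 in limma. 10 ringed points lie above 0, 5 of them late starts, and 2 ringed points of the 5p arms lie below.

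The other miRNAs known for neurons were measured beside miR-128 to describe the tissue. All 14 on the list were tested, and only miR-7a-5p was called, lower, from 183 and 192 CPM to 116 and 136 CPM (limma, adjusted p = 0.266). Of all 456 tested miRNAs 16.2% were called in either direction, so 1 call among these 14 was not above the background. The list had a median log2 change of -0.31, against -0.22 for all tested miRNAs, and 3 of its members had a positive change. Its summed level was 216826 to 245536 CPM at 2 months and 189535 to 207662 CPM at 18 months, lower in each 18-month library on the CPM scale but overlapping after rescaling, at 223782 and 203374 against 226464 and 199340 rescaled CPM. The log2 change of miR-128-3p, 0.37, missed the test and lay above the highest of these 14, 0.24 with a standard error of 0.22. Without 2-month replicate 1 the change of miR-128-3p was 0.0004. A member of the list, miR-129-2-3p, was among the profiles most like miR-128-3p. Both 5p arms lay within the range of the 14.

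Markers of other cells that brain tissue can hold were detected. Of 2 endothelial miRNAs, miR-126a-3p was called lower, from 9242 and 8854 CPM to 2557 and 6489 CPM (limma, adjusted p = 0.266). A list of 2 is too short to set 1 call against the 16.2% called among all tested miRNAs. The other, miR-126a-5p, overlapped, with 3000 and 2618 CPM at 2 months, against 2865 and 2501 CPM at 18 months. The 3 oligodendrocyte, 2 smooth muscle, 2 red blood cell, 4 immune cell and 2 choroid plexus miRNAs that were tested missed the threshold in limma. Summed levels at 2 and 18 months ran from 7961 to 11603 and 6183 to 9981 CPM for the oligodendrocyte list, from 11472 to 12243 and 5422 to 8990 CPM for the endothelial list, and from 6415 to 6559 and 4915 to 5033 CPM for smooth muscle. They ran from 1798 to 3374 and 1698 to 2818 CPM for red blood cells, from 3142 to 3569 and 2771 to 2902 CPM for immune cells, and from 2116 to 2641 and 2266 to 2809 CPM for the choroid plexus. After rescaling, the sums of the endothelial and smooth muscle lists were still lower in each 18-month library. How many of all miRNAs were so on that scale was not counted. The immune cell list, separate between the ages on the CPM scale, overlapped, at 2864 and 3348 against 3022 and 3052 rescaled CPM. Their part in the levels of miR-128 was not tested.

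**Figure D5:**
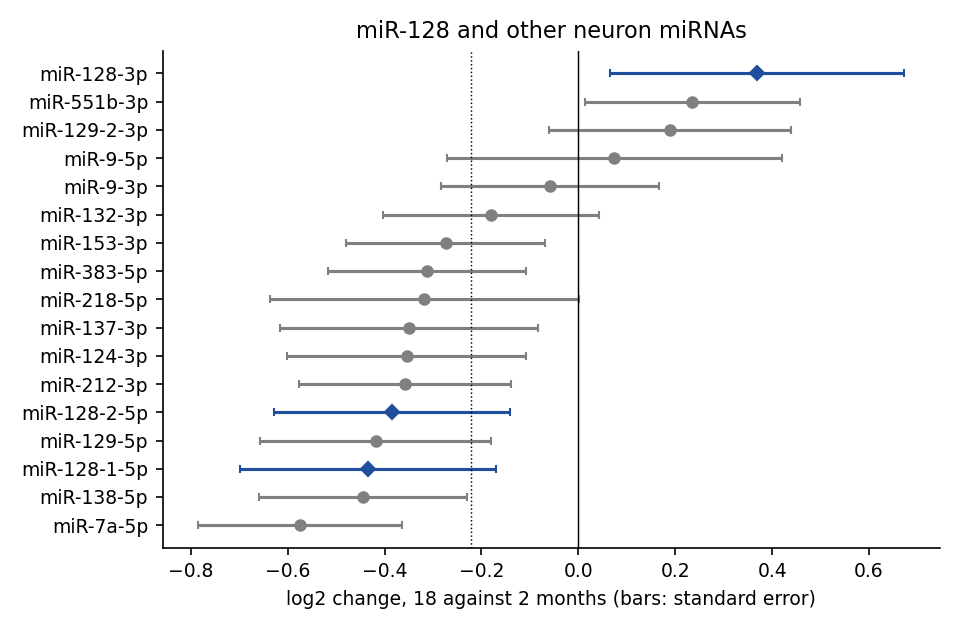
Log2 change from 2 to 18 months (points, with standard errors as bars) of the 3 miR-128 forms (blue diamonds) and of 14 other neuron miRNAs (grey); the dotted line is the median of all tested miRNAs, -0.22. miR-128-3p lies at the upper end and the 5p arms lie among the 14.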

How the data were processed

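Small RNAs bound to Ago were sequenced from 4 libraries. The authors trimmed the reads (Trim Galore per the submitters' processing notes, version not given in the sources used here), removed rare ones, matched the rest to mouse small RNAs by BLAST and dropped artificial sequences. They deposited CPM for each sequence, which are counts brought by the authors to an equal sum per library. The authors also added to each sequence a seed and a score (cell viability for that seed, averaged over 3 mouse cell lines) and deposited the sum of CPM over the libraries, a signal that was not used.

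CPM values were divided by the CPM of a single read; within a tolerance of 0.05 reads, 100% of the nonzero values came out whole, so depth was known and 3 reads were worth 0.263 to 0.331 CPM. The smallest sum of reads of a sequence was 4. Levels were summed by name. Starts and ends were read against the RefSeq hairpins of GRCm38.p6, with shifts of at most 4 bases and tails of at most 3. Host genes are from GENCODE on the same build. log2(CPM + 1) was compared between the ages, without other covariates, by limma's two-sided test with an intensity trend, for miRNAs averaging at least 10 CPM and sequences averaging at least 1 CPM. Fold changes are on that scale. The methods of the study take p under 0.05 without naming a test for single sequences, and the same threshold defines a call. Per-library shares were compared by two-sided exact permutation tests, which cannot go below 0.333 here. An adjustment over these measures could only raise their p.

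The text names the 3 members, sequences among the 5 most abundant of each arm, the 2 miRNAs above and below miR-128-3p, the 5 most like it, miRNAs with at least 10 CPM of a miR-128-3p seed, and at most 4 per marker list. Called sequences beyond these were chosen after their values were seen. The members and lists were chosen with earlier results of these data known. On simulated counts with a dispersion of 0.05 and 200 items changed by a fold of 4, limma recovered 100% of changed items among 456 miRNAs, calling 3.52% of the unchanged, and 97.5% among 14287 sequences, calling 4.82%. The recovery of changes as small as those of the miR-128 forms was not simulated. The alternatives were other pseudocounts and filters, no trend, rescaled libraries, edgeR and DESeq2 on the recovered reads, the replicate number as a block, exact matches only, and each library left out. Versions were R 4.3.3, limma 3.58.1, edgeR 4.0.16, DESeq2 1.42.0, matplotlib 3.10.9, scipy 1.17.1, pandas 2.3.3, numpy 2.4.6 and Python 3.11.15.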

Additional observations from a re-analysis of the deposited data

Results flagged for a closer look

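The deposited table also held 533 sequences without a miRNA name that the authors had matched to a miR-128 hairpin, 479 to mir-128-1 and 54 to mir-128-2. They lie outside the levels given above and summed to 671 and 1107 CPM at 2 months, against 1222 and 986 CPM at 18 months, above the 3 reads that a count of 0 allows in each library. They drew attention as a signal in data that no comparison used. Relative to named miR-128-3p they were 1.79%, 1.77%, 1.75% and 1.76%, nearly the same in each library. 251 of them differed from the miR-128-3p reference by 1 base, with positions counted from 1 at its 5′ end and the reference base written first. The leading changes were A10G with a mean of 90.0 CPM, U17C with 78.1 CPM and U15C with 76.8 CPM. By kind, U-to-C changes were 23.4% of the CPM of these 251 sequences, A-to-G 22.2%, C-to-U 21.6% and G-to-A 14.3%. Their source was not tested.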

How the results depend on the processing

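No alternative turned the direction of the age change of any arm or brought its p under 0.05: over 15 alternatives the log2 change of miR-128-3p ran from 0.0004 to 0.74, and over 14 that of miR-128-1-5p from -0.62 to -0.23 and that of miR-128-2-5p from -0.57 to -0.15. With the unnamed hairpin sequences added, which was chosen after seeing the data, miR-128-3p stayed in that range. The number of miR-128 sequences called was 21 without a filter, 3 with a mean of at least 10 CPM, where 60 sequences were tested, 6 with DESeq2 and 0 after adjustment. It ran from 1 to 19 when each library was left out. A lone library left in an age was then assumed to vary like the other age. Left-out libraries also turned the difference in the share of miR-128-1-5p among 5p reads, from -0.999 to 3.30 without 2-month replicate 1 and to 0.0723 without 18-month replicate 1 (range -5.30 to 3.30), and in the mir-128-1 share of hairpin-specific 3p reads, from 1.19 to -0.0402 without 2-month replicate 1 (range -0.0402 to 2.43). The difference in the 5p share of miR-128 reads ran from -0.155 to -0.0378 and that in shifted starts from 0.594 to 1.07 percentage points.

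The labels give both ages replicate numbers, but nothing says that a number marks a shared animal or day, and deviations of same-numbered libraries had a correlation of 0.180 over 456 miRNAs. With the replicate block 10 sequences were called, and the unadjusted limma p was 0.331 for miR-128-3p, 0.0908 for miR-128-1-5p and 0.165 for miR-128-2-5p. Counting error is larger for the 5p arms, at 231 to 761 reads per library, than for miR-128-3p, and all 3 forms have only 2 libraries per age.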
